A study of Mus musculus with 2 samples.

Results

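The genes described are 10 mouse genes of RAC and ARF signalling: Rac1, Rac2, Rhoh, Vav1, Vav2, Dock2, Dock8, Cyth1, Cyth4 and Cyfip2, out of 21318 protein-coding genes with a known strand. They were chosen by measured values of the same data, in part for a large group of peaks over Rac2 and Cyth4, so that having peaks is how they were picked and is no result about them. The assay was ChIP-seq, in which DNA bound by TCF12 is precipitated with an antibody and sequenced, and the cells were CH12.LX, a female B-cell lymphoma line of mouse strain B10.H-2aH-4bp/Wts. The data are 1 group of 2 biological replicates of that line, with no treatment, no altered gene and no second cell type, so every value below describes TCF12 in this line alone. A window ran from 10 kb upstream of a gene's 5' end to its 3' end on the mm10 build. All peaks of the authors' optimal list with their summit in the window were taken. That list was cut at a threshold of the irreproducible discovery rate (IDR), a measure of how well peak ranks repeat between lists. Not every peak on it overlapped a peak in both replicates' own lists. Each peak carries a signal in the peak caller's own units for the pooled data, and the peak at the same place in each replicate's own list gives a signal per replicate. A pair of signals in parentheses is that of replicate 1 and then replicate 2. Read depth is unknown, and gene expression was not measured here.

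TCF12, or HEB, belongs to the E proteins, which bind DNA as dimers at E-boxes of the form CANNTG and which B cells need from their earliest stages. RAC proteins are small GTPases that switch between a GDP-bound and a GTP-bound state, and exchange factors such as the VAV and DOCK proteins load them with GTP. Active RAC drives actin branching through the WAVE complex, of which CYFIP proteins are subunits, and in lymphocytes this pathway serves antigen receptor signalling, adhesion and migration. Cytohesins are exchange factors for ARF GTPases, which act on membrane traffic and on integrin adhesion.

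Sequences under the summits could be read only on the mm9 build, from a separate mm9 peak list that pools the replicates. The windows printed here reach 50 bp to either side of an mm9 summit, 101 bases on the plus strand. They are shown because they hold E-boxes, at the strongest mm9 peak of a gene or, where said, at a weaker one. Capitals mark CAGCTG and CACCTG, together called the main E-boxes here, and CATCTG, each on either strand, so that CACCTG can read CAGGTG and CATCTG can read CAGATG. For Cyfip2 (chr11:46118498-46118598), Dock8 (chr19:25137472-25137572), Rac2 (chr15:78402160-78402260), Cyth4 (chr15:78435851-78435951) and Rhoh (chr5:66253915-66254015) the window is that of the strongest mm9 peak. The Rhoh window is upstream of the mm9 start, which lies inside the gene span used on mm10.
Cyfip2 intron: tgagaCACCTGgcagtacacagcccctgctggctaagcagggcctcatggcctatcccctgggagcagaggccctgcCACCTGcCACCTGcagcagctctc
Dock8 intron: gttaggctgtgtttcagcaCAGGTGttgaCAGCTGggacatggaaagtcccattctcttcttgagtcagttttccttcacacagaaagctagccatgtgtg
Rac2 intron: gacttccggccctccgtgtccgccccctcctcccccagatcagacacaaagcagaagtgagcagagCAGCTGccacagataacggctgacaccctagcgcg
Cyth4 intron: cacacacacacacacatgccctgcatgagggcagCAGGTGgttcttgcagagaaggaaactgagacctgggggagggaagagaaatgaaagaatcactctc
Rhoh upstream: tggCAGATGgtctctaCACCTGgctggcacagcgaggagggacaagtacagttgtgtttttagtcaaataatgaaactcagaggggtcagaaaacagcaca

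In Cyth1, Vav2, Vav1, Dock2 and Rac1, 5 of the 10 genes, the strongest mm9 summit window held no main E-box. Rac1 had no other mm9 peak, and its window is not printed. For Cyth1 and Vav2 that strongest window is printed (chr11:118073169-118073269 and chr2:27167253-27167353), a choice made after its letters were seen, followed by the strongest peak of the gene that did hold a main E-box (chr11:118105081-118105181 and chr2:27152801-27152901). For Vav1 and Dock2 only the latter is given (chr17:57420018-57420118 and chr11:34588249-34588349). The strongest windows of Vav1, Dock2 and Rac1 held no CANNTG of any kind. By mm9 signal, the peak with a main E-box ranked 2 within Cyth1, Vav2 and Vav1. In Dock2 it ranked 6, with 44.0 against 181 at the strongest, and 65.3% of all mm9 peaks exceeded it.
Cyth1 strongest: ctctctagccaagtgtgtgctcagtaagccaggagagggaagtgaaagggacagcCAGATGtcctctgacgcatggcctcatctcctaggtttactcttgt
Cyth1 with a main E-box: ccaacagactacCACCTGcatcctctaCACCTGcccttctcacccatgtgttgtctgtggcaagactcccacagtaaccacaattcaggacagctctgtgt
Vav2 strongest: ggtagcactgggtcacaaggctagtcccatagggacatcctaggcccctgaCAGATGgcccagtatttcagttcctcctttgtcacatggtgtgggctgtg
Vav2 with a main E-box: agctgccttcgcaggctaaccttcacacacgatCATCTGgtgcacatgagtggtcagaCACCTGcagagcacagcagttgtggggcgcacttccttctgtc
Vav1 with a main E-box: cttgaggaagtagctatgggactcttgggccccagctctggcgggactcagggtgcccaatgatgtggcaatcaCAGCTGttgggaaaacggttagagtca
Dock2 with a main E-box: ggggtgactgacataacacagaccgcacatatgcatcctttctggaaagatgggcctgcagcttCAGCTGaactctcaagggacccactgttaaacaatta

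Cyfip2 had 3 copies of CACCTG at its strongest summit, 2 of them separated by a lone base. Dock8 had CACCTG and CAGCTG close together, and Rac2, Cyth4 and Rhoh had 1 main E-box each. The strongest windows of Cyth1 and Vav2 each held a CATCTG near the summit, a form found in 12 of the 75 mm9 peaks of these genes (95% Wilson interval 9.4 to 25.9%) and in 11.4% of all mm9 peaks. Of the 10 genes, 8 had an entry in the RefSeq promoter table (GRCm38.p6), and Rac1 and Rac2 had none. The promoter of Vav1 is shown because the strongest Vav1 summit lies 17 bp past the start of the gene (mm10 chr17:57278850-57279099, plus strand, the 250 bases before the start). Its capitals mark CACCTG, on the other strand, and GAGGAAGT, the type of ETS site bound by PU.1, the myeloid and B cell factor.
Vav1 promoter: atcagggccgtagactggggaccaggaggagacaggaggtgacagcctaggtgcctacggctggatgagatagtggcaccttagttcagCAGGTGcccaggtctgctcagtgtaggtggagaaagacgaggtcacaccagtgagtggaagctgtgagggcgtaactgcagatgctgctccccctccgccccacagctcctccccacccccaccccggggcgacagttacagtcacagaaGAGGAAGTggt

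A main E-box lay in 32.9% of 32851 RefSeq promoter windows of 300 bases, and GAGGAAGT, searched on both strands, in 3.2%. Among the printed mm9 windows, that of the Vav1 intron also holds GAGGAAGT, at its left end in lower case.

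All 10 genes had an optimal peak in their window, as did 57.2% of all genes. Because the genes were picked for peaks, nothing is read from that difference. A strongest signal of 100 or more was reached by 6 of the 10, Cyfip2, Cyth1, Vav2, Dock2, Rac2 and Rhoh, and by 11.2% of all genes. The windows held 105 of the 35848 optimal peaks. By number, Vav2 led with 20 peaks, followed by Cyfip2 with 18, Cyth1 with 15, Dock2 with 14, Cyth4 with 9, Rac2, Vav1 and Dock8 with 7 each, Rhoh with 6 and Rac1 with 2. At an IDR score of at least 830 the counts of 5 genes moved by over 1.5 times, to 11 each for Vav2 and Cyfip2, 9 for Cyth1, 8 for Dock2 and 1 for Rac1, so that Vav2 no longer led alone. Rac1 also had 1 without replicate 1. In the conservative list Vav2 and Cyfip2 had 18 each, followed by Dock2 with 16, Cyth1 with 11 and Dock8 with 10, so the order of genes changed there too. The counts over the whole optimal list follow window length in part: per 100 kb of window, Rac2 had 29.6 and Cyth4 25.7 peaks, Vav2 11.4 and Dock2 2.47. Of all genes, 0.169% had more peaks than Vav2, but 11.5% had a denser window. For Rac2 those shares were 2.48% and 1.23%. The 105 peaks came to 93 regions after overlapping peaks were merged.

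**Figure D1:**
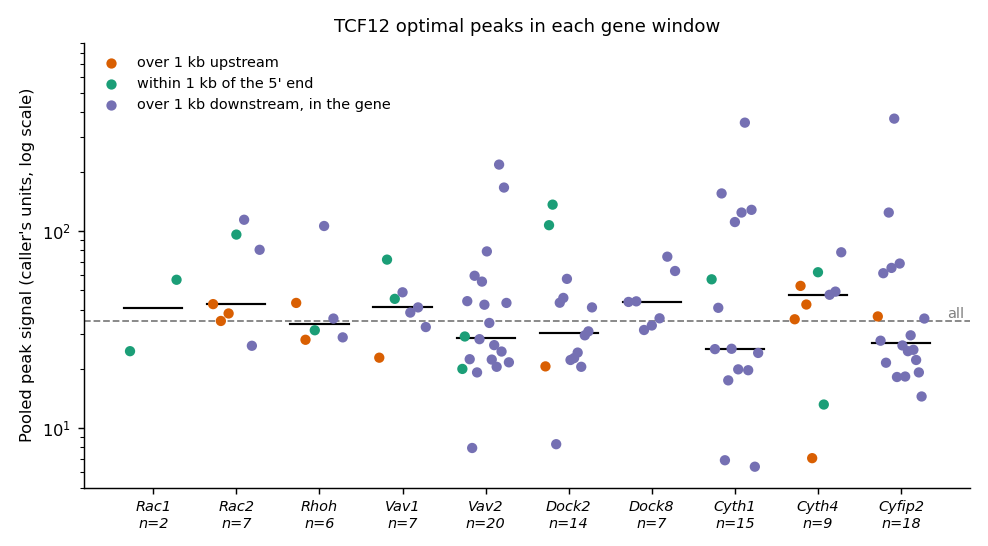
Pooled signal of every optimal peak in each gene's window (caller's units, log scale), 1 point per peak ordered from upstream to downstream, coloured by position, with the gene's median as a bar and the median of all optimal peaks, 35, as a dashed line. Cyfip2 and Cyth1 each have a peak of 354 or more over many weak ones, and the lowest Dock8 peak, at 31.5, is the highest minimum.

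Among the GTPases, Rac1 (mm10 chr5:143505481-143528031, minus strand), the RAC protein of most tissues, had the fewest peaks and the lowest strongest signal of the 10 genes. Its 2 peaks overlap at the promoter. The stronger lay 2 bp upstream of the 5' end, with a pooled signal of 56.6, 32.9 in replicate 1 and 25.1 in replicate 2. The other lay 0.201 kb upstream with 24.6. With windows that start at the 5' end, Rac1 has no peak.

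Rac2 (chr15:78559169-78572783, minus strand), the RAC protein of blood cells and a part of the phagocyte NADPH oxidase, had its strongest peak 1.03 kb downstream of the 5' end, with a signal of 114 from 66.6 in replicate 1 and 50.1 in replicate 2. A promoter peak 71 bp upstream had 95.9 (55.6 and 39.6 in replicates 1 and 2). A peak near the 3' end, 8.68 kb into the gene, had 80.3 (53.8 and 26.9). All 7 Rac2 peaks were higher in replicate 1, by 1.33 to 4.62 times, and 6 of them had the highest IDR score of 1000.

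Rhoh (chr5:65860742-65896700, plus strand) encodes a relative of RAC in blood cells that binds GTP but hardly hydrolyses it. At its strongest peak replicate 2 was the higher, which of the other 9 genes was seen at Vav1 alone, with a smaller gap. The Rhoh peak had a pooled signal of 106, with 38.0 in replicate 1 and 68.9 in replicate 2, while the other 5 Rhoh peaks were all higher in replicate 1. It lay 1.98 kb downstream of the 5' end of the annotated span. The RefSeq promoter table places a Rhoh start 2842 bp farther into the gene, and from that start the peak lies 861 bp upstream. The remaining Rhoh peaks had pooled signals of 28.1 to 43.2.

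Rac2 and Cyth4 lie back to back on chromosome 15, reading away from each other, with 24.3 kb between their 5' ends. From the 3' end of Rac2 to that of Cyth4 there were 18 summits over 41.4 kb of mm10, with a median signal of 48.4. All 18 overlapped a peak in both replicates' own lists, as did 34817 of all 35848 optimal peaks. At the Cyth4 peaks of 7.06 and 13.2, the replicate 2 summit lay 276 and 196 bp away, with signals of 3.48 and 2.92. Of the 18, 17 were higher in replicate 1, and 14 had the highest IDR score. Between the 5' ends lay 10 of them. The strongest of these 10, with a signal of 102 (69.2 and 33.3), sits 10.8 kb upstream of Rac2, just outside its window. With a neighbour of 66.0 (33.0 and 34.6) it belongs to neither window, so the counts of 7 and 9 leave out these 2 peaks.

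Linking summits at most 12 kb apart extended the group past Rac2 to 26 summits over 76.9 kb, and 2 of 2225 such groups on the genome had more. The 8 summits added on that side lay near C1qtnf6, a gene of the C1q and TNF related family, and Sstr3, a somatostatin receptor gene. They were weak, with signals of 6.03 to 28. Linking at 6 kb gave 18 summits, the same number as between the outer ends of Rac2 and Cyth4. After the last summit, inside Cyth4, no optimal peak followed for 85.4 kb. The group was named in the choice of these genes, and its size is given as a description.

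**Figure D2:**
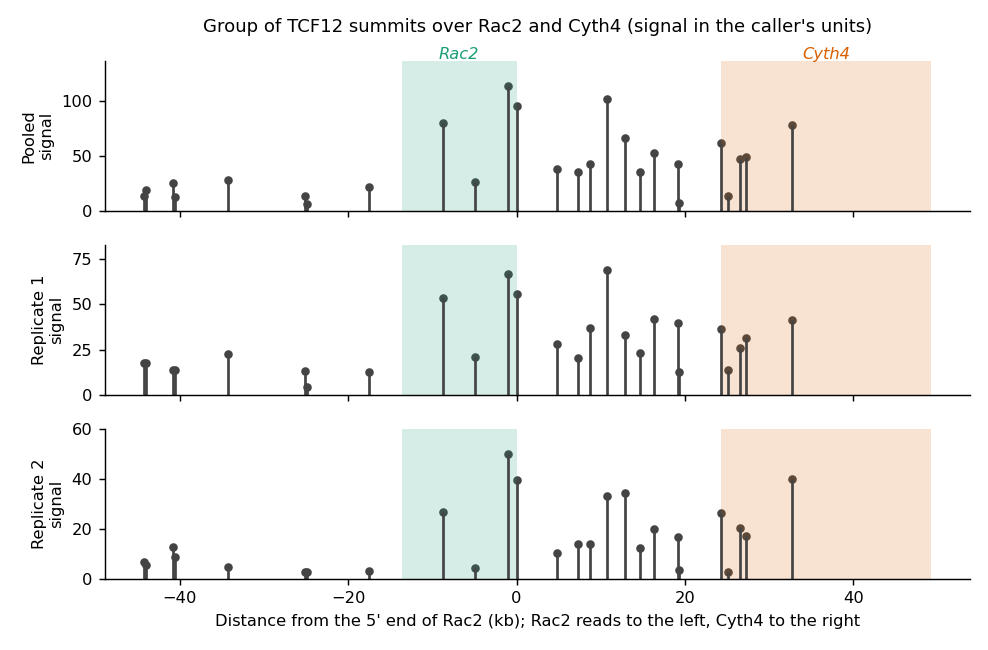
Signal of the 26 linked summits by distance from the 5' end of Rac2 in kb, in the pooled data and in each replicate (caller's units), with the spans of Rac2 (green, read to the left) and Cyth4 (orange, read to the right) shaded. The tall summits lie over Rac2, between the genes and in the 5' part of Cyth4 in both replicates, and the 8 summits to the left of Rac2 are low.

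Of the VAV exchange factors, Vav1 (chr17:57279100-57329236, plus strand), the form of blood cells, had its 7 peaks in the 5' part of the gene. The strongest, 17 bp downstream of the 5' end, had a signal of 71.6, with 33.9 in replicate 1 and 37.2 in replicate 2. In replicate 1 alone, the strongest peak was another, a peak of 39.2 at 1.56 kb, intronic on mm9, that had 8.78 in replicate 2. The replicates therefore differ over which Vav1 peak leads. The optimal peaks spanned 15.0 kb, from 3.62 kb upstream to 11.4 kb downstream, and none lay in the rest of the 50.1 kb span.

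Vav2 (chr2:27262104-27427608, minus strand) is the broadly expressed VAV protein and also acts at the B cell receptor. Its 20 peaks fell into 2 groups with a lone summit between. Around the 5' end, 12 summits covered 28 kb, the strongest with a signal of 78.8 (38.8 and 41.2) 22.6 kb into the gene. Toward the 3' end, 7 summits covered 25.4 kb and included the strongest peaks of the gene. These had 217 (145 and 76.2) at 116 kb, over chr2:27311666-27311919, and 166 (100.1 and 66.2) at 130.3 kb. The promoter itself had only weak peaks of 29.2 and 20. Of all optimal peaks, 0.898% exceeded the strongest Vav2 peak.

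Dock2 (chr11:34226815-34783905, minus strand), the RAC exchange factor that lymphocytes need for migration, had 2 strong peaks at its promoter. The higher, 713 bp downstream of the 5' end, had 136 (87.6 and 58.3), and the other, 26 bp downstream, had 107 (66.9 and 42.2). The mm9 windows at these 2 summits held neither CAGCTG nor CACCTG. Of the 14 Dock2 peaks, 13 lay within 57.0 kb of the 5' end in a gene of 557 kb. The last, with 41.0, lay 439.9 kb downstream, inside Insyn2b, a gene nested in Dock2, so it cannot be assigned to either gene by position.

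Dock8 (chr19:24999321-25202432, plus strand), an exchange factor for CDC42 whose loss causes an immunodeficiency in people, had 7 peaks and none within 1 kb of its 5' end. The strongest, 63.7 kb downstream, had 74.1 (46.4 and 39.1), and a peak at 78.9 kb had 62.7 (40.6 and 21.3). The peak nearest the 5' end lay 3.74 kb downstream with 43.7 (24.3 and 18.2). The weakest Dock8 peak had 31.5, the highest minimum of the 10 genes.

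Cyth1 (chr11:118164170-118248616, minus strand), a cytohesin that acts on integrin adhesion of lymphocytes, held in pooled mm10 signal the strongest peak of the set after that of Cyfip2, an order that turned in replicate 1 alone. Its signal was 354, with 228 in replicate 1 and 127 in replicate 2, and 0.0558% of all optimal peaks exceeded it. The peak (chr11:118211721-118212117) lay 36.7 kb downstream of the 5' end of the span. Cyth1 has 3 starts in the RefSeq promoter table, 2 of them inside the gene, 35.9 and 45.9 kb past the 5' end of the span, and from the nearer of these the strongest summit lies 825 bp downstream. A peak of 124 (80.6 and 42.4) lay 246 bp upstream of the same internal start, and a peak of 128 (76.8 and 51) lay 1002 bp upstream of the other. The promoter at the outer 5' end had 56.9 (43.0 and 16.9), and a peak 4.78 kb downstream had 155 (88.6 and 65.7). Cyth1 thus had 5 peaks above 100, the highest of them next to an internal start, and a weaker peak at its outer promoter.

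Cyth4 (chr15:78597047-78622019, plus strand), the cytohesin gene next to Rac2, had 9 peaks with a median signal of 47.5, the highest median of the 10 genes. The strongest, 8.46 kb downstream of the 5' end, had 78.0, with 41.3 and 40.1 in replicates 1 and 2. In replicate 1 alone the highest peak was that 7.93 kb upstream, with 42.1, which had 20.1 in replicate 2. The leading peak of Cyth4 therefore also depends on the replicate. A promoter peak 66 bp downstream of the 5' end had 61.8 (36.6 and 26.2).

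Cyfip2 (chr11:46193849-46312859, minus strand), the WAVE complex subunit that binds active RAC, had the strongest peak of the 10 genes in the pooled mm10 signal. In replicate 1 alone the strongest Cyth1 peak was higher (228 against 205), as it was in the mm9 list (902 against 869.7 in mm9 signal), so which of these genes leads depends on the list. The Cyfip2 signal (chr11:46304891-46305190) was 371, with 205 in replicate 1 and 163 in replicate 2, and 0.0363% of all optimal peaks exceeded it. It lay in an intron, as annotated on mm9, 7.81 kb downstream of the 5' end of the span and 7312 bp from the RefSeq start. Around it, a peak of 124 (85.6 and 38.8) lay at 4.38 kb and peaks of 65.0 and 61.1 at 5.87 and 3.25 kb, all in the first 10 kb. Farther in, at 25.9 kb, lay the third strongest Cyfip2 peak, with 68.4 (42.3 and 24.5). The optimal list had no peak within 1 kb of the Cyfip2 5' end. The mm9 list had 2, with mm9 signals of 48.0 at 71 bp upstream and 39.2 at 910 bp downstream of the mm9 start.

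**Figure D3:**
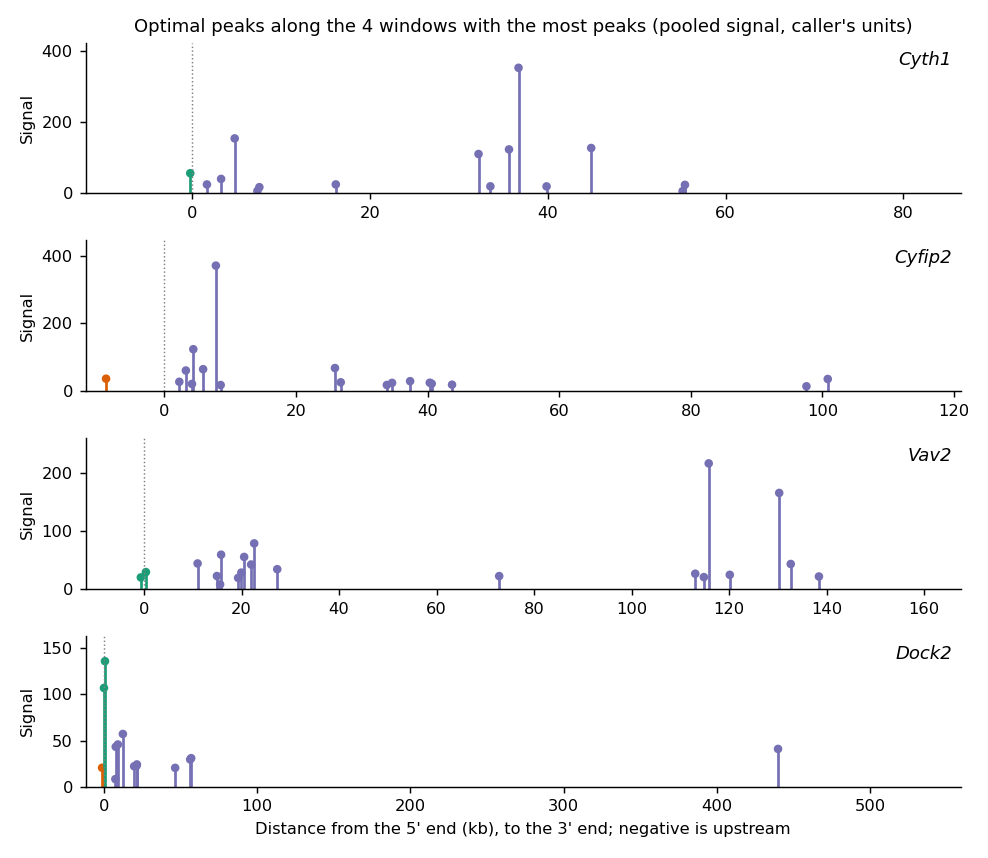
Pooled signal (caller's units) of the optimal peaks of Cyth1, Cyfip2, Vav2 and Dock2 by distance from the 5' end in kb, up to the 3' end, coloured as upstream (orange), within 1 kb (green) or farther into the gene (purple), with a separate scale for each gene. Dock2 is strongest at the 5' end, Cyfip2 within the first 10 kb, Cyth1 around its internal starts near 35.9 kb, and Vav2 from 113 kb on.

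Of the 105 peaks, 100 overlapped a peak in both replicates' relaxed lists, as did 34817 of all 35848 optimal peaks. The other 5, in Dock2, Cyth1 and Cyfip2, overlapped a peak in replicate 1 alone, as did 846 over all optimal peaks. The relaxed lists are much longer than the optimal list, and an overlap of 1 bp was enough, so nothing particular to these genes is read from this. The strongest peak of each replicate overlapped the pooled strongest in every gene except Vav1 and Cyth4, where replicate 1 led elsewhere. Replicate 1 was higher at 84 of the 100, or 84.0%, by a median of 1.74 times, against 83.2% and 1.64 times over all optimal peaks. The higher values of replicate 1 are therefore a feature of the whole data set, whose scaling is not stated, and the median ratio fell to 1.07 when each replicate was divided by its own median over all optimal peaks. By gene, the median ratio ran from 1.12 at Rac1 to 2.0 at Rac2. Both Rac1 peaks were matched to the same replicate 2 peak, and at the stronger of them the ratio was 1.31.

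**Figure D4:**
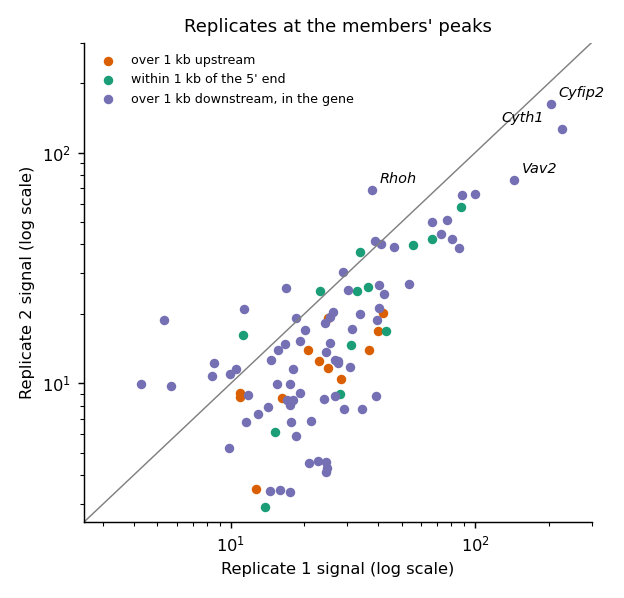
Signal in replicate 2 against replicate 1 at the 100 peaks that overlapped a peak in both (caller's units, log axes), coloured by position, with the line of equal values. Most points lie below the line, the strongest peaks of Cyfip2, Cyth1 and Vav2 lie at the top right, and the strongest Rhoh peak is above the line.

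In signal the peaks were much like the rest of the optimal list. Their median was 36 against 35, 54.3% against 53.9% had the highest IDR score, and 12.4% against 9.02% had a signal of 100 or more. In position they differed more. Within 1 kb of a 5' end lay 12.4% of them (95% Wilson interval 7.38 to 20, for counting error only, with neighbouring peaks taken as independent), against 29.3% (28.8 to 29.8) of all optimal peaks. Counting any RefSeq start as well, an alternative added after the internal Cyth1 starts were seen, the shares were 17.1% and 35.8%. The windows take in whole, mostly long genes and leave out peaks between genes, which all optimal peaks include, and the part of this in the gap was not tested. Of the 105 peaks, 80 lay over 1 kb into the gene, 13 within 1 kb of its own 5' end and 12 farther upstream. In 7 of the 10 genes the strongest peak was over 1 kb from the 5' end, or in 5 when every RefSeq start was counted, namely Vav2, Dock8, Cyfip2, Cyth4 and, at 1032 bp, Rac2. Of the 12184 genes with an optimal peak, 44.8% had their strongest over 1 kb from their own 5' end, and 30.8% over 1 kb from any start. With 10 genes of mostly long windows, nothing is read from these differences.

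On mm9, the windows of the 10 genes held 75 of 23572 peaks. Of these, 56 lay in introns, 15 upstream, 3 in untranslated exons and 1 in a coding exon, of Cyfip2. Rhoh positions on mm9 are from the RefSeq start inside its mm10 span, so its strongest peak counts as upstream here. The summit windows of 32 of the 75 contained a main E-box, 42.7% (95% Wilson interval 32.1 to 53.9), against 31.0% of all mm9 peaks. Of all mm9 peaks, 8085 lay within 1 kb of a 5' end, a larger share than the 12 of the 75, and those hold these boxes less often. Split by position, the shares were 46.0% (34.3 to 58.2) against 39.6% for the 63 peaks over 1 kb from a 5' end, an interval that includes the value of all peaks, and 3 of 12 against 14.4% for the rest. Any CANNTG was found in 68.0% (56.8 to 77.5) against 52.1%, a comparison that was not split by position. By gene, Cyfip2 had a main E-box in 7 of 15 mm9 peaks, Cyth4 in 5 of 8, Dock2 in 5 of 10, Rac2 and Vav1 in 3 of 5 each, Dock8 in 3 of 6, Vav2 in 3 of 10, Cyth1 in 2 of 10, Rhoh in 1 of 5 and Rac1 in none of 1. The 2 Cyth1 peaks with a main E-box were among its 5 strongest on mm9, and 2 of its 10 mm9 peaks lie in a longer mm9 gene span, past the 3' end used on mm10. Neighbouring peaks share a gene, and the counts per gene are too small to rank the genes.

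The mm9 peaks of the 10 genes also held the letters of sites known for other B cell factors. GAGGAAGT lay in 6 of 75, 8.0% (3.72 to 16.4), against 3.13% of all mm9 peaks, in Vav1 at 2 peaks and in Vav2, Dock2, Dock8 and Cyth4 at 1 each. The NF-kappaB form, GGGA and CC with any 4 bases between, lay in 17.3% (10.4 to 27.4) against 11.7%, and TGANTCA, the AP-1 form, in 9.33% (4.59 to 18) against 7.64%. The octamer ATGCAAAT, the EBF1 form (TCCC and GGGA with any 2 bases between), the RUNX form TGTGGTNT and the ETS site CCGGAAGT were found at 1 of the 75 each, or 1.33% (0.236 to 7.17). Over all mm9 peaks the shares were 2.25% for the octamer, 1.15% for the EBF1 form, 3.95% for the RUNX form and 2.94% for CCGGAAGT. The match to the EBF1 form lay at the strongest Cyfip2 peak and that to CCGGAAGT at the strongest Rac2 peak. All were searched on both strands in the 101-base windows, matches of different forms can overlap, and 12 motif forms were looked at in all. A match is a run of letters, not a shown binding site.

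The families of these genes were uneven in their peaks. Of the RAC genes, Rac3 had 2 peaks with a strongest signal of 67.7, close to Rac1. Vav3, with a window of 355 kb, had none, while Vav1 and Vav2 had 27 between them. Of other DOCK genes, Dock10 had 11 peaks (strongest 88.2) and Dock9 had 9 (81.8), both of them CDC42 or RAC exchange factors, whereas Dock4 had 2, Dock6 and Dock11 had 1 each, and Dock1, Dock3 and Dock5 had none in windows of 192 kb or more. Cyth2 and Cyth3 had 1 peak each, with 43.6 and 17.5. Cyfip1, the other CYFIP gene, had none in a window of 101 kb. Vav3, Dock1, Dock3, Dock5 and Cyfip1, without a peak, thus had windows of 101 kb or more, and whether they are expressed in CH12.LX was not measured here. The genes described were chosen for their peaks, so the difference from the rest of each family is in part that choice.

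**Figure D5:**
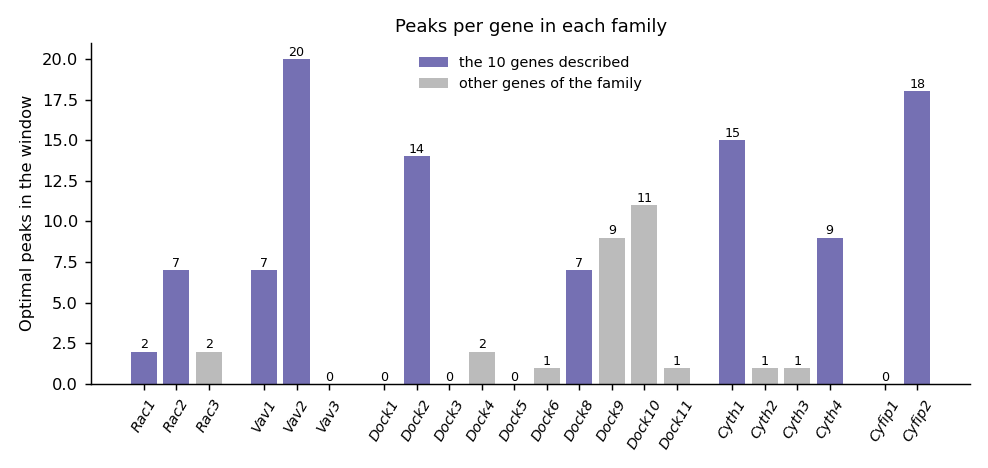
Number of optimal peaks in the windows of RAC, VAV, DOCK, cytohesin and CYFIP genes, with the genes described in purple and others of each family in grey. Among the grey bars plotted, only those of Dock9 and Dock10 are above 2 peaks.

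Across the wider pathway, 100 of 122 other genes in 7 lists had an optimal peak, 82.0% against 57.2% of all genes. Their windows were also longer, with a median of 61.9 kb against 27.4 kb, and what that adds was not tested. The median strongest signal of the genes with a peak was 68.5, against 58.7 over all genes.

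Of the small GTPases closest to RAC, 12 of 17 had a peak. The strongest signals were at Rhobtb1 (138, from 77 and 63.1 in replicates 1 and 2), at the promoter of Cdc42, the GTPase of cell polarity (132, from 86.4 and 45.8), and at Rhoq (129.9, from 85.5 and 50.1). Rhod, Rhoj and Rhou were among those with none. Of the VAV and related exchange factors 15 of 18 had a peak, led by Arhgef1, which acts on RHOA (143, from 111 and 36), Swap70, an exchange factor first found in B cells (125, from 78 and 48.9), and Prex1 (107, from 71.1 and 38.6). Vav3, Prex2 and Arhgef18 had none. Of DOCK proteins and their ELMO partners 9 of 12 had a peak, with the strongest at Elmo1, the adaptor that binds DOCK2, whose 15 peaks reached 192 (111 and 81.8).

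Of ARF GTPases and their exchange factors, 14 of 17 had a peak, led by Iqsec1 (222, from 138 and 87), Psd3 (172, from 92.2 and 82.3) and the promoter of Arf1 (139.8, from 77.4 and 66.6). Iqsec2, Iqsec3 and Psd2 had none. Of WAVE, WASP and actin nucleation genes 19 of 22 had a peak. They included Abi3, a WAVE complex subunit (142, from 83.8 and 51.4), Actr3, a core part of the ARP complex that branches actin (128, from 88.1 and 41.6), and Wasf2, a WAVE protein (117, from 72 and 46.3), and Cyfip1, Abi2 and Wasf3 had none.

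Of the GTPase activating proteins and dissociation inhibitors, which turn RAC and related GTPases off, 17 of 20 had a peak. Bcr led with 12 peaks and a strongest signal of 219 (128 and 93.3), followed by Arhgap24 (160.4, from 111 and 51) and Arhgap17 (153, from 118 and 36.4), and Arhgap4, Arhgap9 and Chn2 had none. Of RAC and CDC42 effectors and NADPH oxidase subunits 14 of 16 had a peak. The strongest lay 3.13 kb upstream of Ncf1, the gene of the oxidase subunit p47phox (252, from 161 and 92.3), and 638 bp into Ncf4, that of p40phox (181, from 106 and 72.9), ahead of Iqgap1 (159, from 88.3 and 70.6). Pak1 and Pak3 had none. The strongest signals in these lists stayed below those of Cyfip2 and Cyth1. Ncf1, Iqsec1 and Bcr exceeded Vav2 (217), the next of the genes described. Those genes were chosen by measured values of these data, so nothing is read from this order.

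The edge of the optimal list differed between genes. The weakest optimal peak in a window ran from 6.39 in Cyth1 to 31.5 in Dock8. The strongest relaxed peak that was not in the optimal list ran from 17.1 in Cyth4 to 36.4 in Cyfip2. These ranges overlap. The weakest optimal peaks of Cyth1, Cyth4, Vav2 and Dock2, at 6.39 to 8.31, each overlapped a stronger optimal peak. Past the 3' ends, the nearest optimal summits outside the windows lay from 3.95 kb away in Rac2 (21.8) to 109 kb away in Dock8 (47.7). On the upstream side, where windows end 10 kb from the 5' end, the nearest were closest at Rac2 and Cyth4. They lay 10.8 kb (102) and 11.4 kb (66.0) from those 5' ends, and the farthest lay 95.7 kb from that of Rhoh (32.9). A peak of 326 lay 66.1 kb past the 3' end of Cyfip2, and it was not counted.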

How the data were processed

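TCF12 ChIP-seq peak lists from 2 replicates of CH12.LX were used. Per the file descriptions deposited with the data, the authors called relaxed peaks on each replicate and on both pooled, with a control alignment, and derived the optimal and conservative IDR lists on mm10. The mm9 list was made from the mm9 alignments of both replicates. For the aligner and the peak caller, neither name nor version was given in the sources used here. The deposited signal is the caller's own, with no stated scaling, and the deposited score is the scaled IDR score, up to 1000.

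Gene spans came from RefSeq GRCm38.p6. Strand came from the RefSeq promoter table for 17274 genes and from GENCODE vM1 for 4044 more, giving 21318 of 21631 protein-coding genes. A replicate's value is that of its relaxed peak with the summit nearest to the optimal summit among overlapping peaks. Neighbouring optimal peaks can share the same replicate peak in this way. Summits at most 12 kb apart were linked into groups of 4 or more. Exons and summit sequence were read on mm9 (NCBIM37), and no coordinate was converted. The mm9 5' ends of 8 genes came from exact matches of their RefSeq promoter sequences. Wilson intervals are at the 95% level.

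The genes and the 7 pathway lists were chosen with earlier results of these data known, so every result is a description with no test. The text names all 10 genes, and of each list up to 3 other genes with the strongest peak and up to 3 without a peak, plus family members of the 10 genes and the genes at the Rac2 and Cyth4 group. Dock6, Dock11, Dock4, Cyth2, Cyth3 and Rac3 were added as family members after their values were seen, and 1 item is not reported here. Sequences are the strongest mm9 peak with a main E-box for 9 genes, with the exceptions named. Alternatives were an IDR score of at least 830, the conservative list, each replicate alone, shorter windows, merged peaks, other linking distances, motif windows and promoter distances. Python 3.11.15, pandas 2.3.3, NumPy 2.4.6 and SciPy 1.17.1 were used, and the window, motif and grouping steps were tested on simulated data.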

Additional observations from a re-analysis of the deposited data

How the results depend on the processing

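The size of the Rac2 and Cyth4 group depended on the linking distance and the list: 26 summits became 42 with a linking distance of 24 kb, 16 in the conservative list, 17 at an IDR score of at least 830, and 18 to 19 with either replicate alone. The share of mm9 peaks with a main E-box was 26.7% within 25 bp of the summit (18.3% of all mm9 peaks) and 68.0% for any CANNTG (52.1%). Neither of these was split by position. The median ratio of replicates was 1.07 after division by each replicate's median. The other 73 of 79 alternatives for the main values moved by less than the limits set for them. The number of peaks was 73 at an IDR score of at least 830, 104 in the conservative list and 109 to 112 with either replicate alone, and all 10 genes had a peak in each of these. Starting windows at the 5' end left 9 genes and 88 peaks. Ranks by number changed by over 1.5 times per 100 kb for 8 of the 10 genes, all but Rac1 and Cyth4. In the conservative list the rank of Cyth1 went from 86 to 199 and that of Dock8 from 529 to 252. No paired analysis was possible because there is 1 group. Read depth is unknown, so a weak or missing peak may lie below what these libraries could detect.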
